A study of Mus musculus with 12 samples.

Results

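The genes described here encode proteins that build, carry or take apart the actin filaments which position the meiotic spindle of the oocyte. They are 10 genes of the 24562 in the deposited count table, chosen by symbol: the nucleators Fmn2, Spire1 and Spire2, the vesicle motor Myo5b, the activator Wasl, the Arp2/3 complex subunits Actr2, Actr3 and Arpc2, and the filament turnover genes Cfl1 and Coro2b. All 10 passed the filter on low counts, as did 13943 genes in all. Expression was measured by RNA-Seq in oocytes of CD-1 mice, an outbred stock, without gonadotropin stimulation, and the labels give no genotype or treatment for any group. The cohorts were postnatal day (PND) 13, PND 40 and, at PND 16, small and large mice separated by body weight, with 3 pools of 18 to 45 oocytes in each cohort. The study treats oocytes of PND 13 and PND 16 small mice as lacking meiotic competence and those of PND 16 large and PND 40 mice as having it. Oocytes were taken with an intact germinal vesicle, before a spindle forms, after the surrounding cumulus cells had been stripped off by pipetting. The study drew the oocytes of each cohort from 3 mice and describes the 3 pools as independent. A pool is the unit of replication, and p-values measure the spread between pools. The labels link no pool to a mouse, so whether that spread covers variation between mice is not known.

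An oocyte divides very unequally, because its spindle moves from the center to the cortex and a small polar body is pinched off there. In mouse oocytes this movement depends on a cytoplasmic actin mesh that formin-2 (Fmn2) nucleates together with the Spire proteins, and vesicles carrying Rab11a and myosin Vb (Myo5b) tune the mesh. The Arp2/3 complex is a separate nucleator: it starts side branches on existing filaments when switched on by factors such as N-WASP (Wasl), and it is known for the cortical actin that later holds the spindle at the cortex. Cofilin (Cfl1) severs filaments, and coronins such as Coro2b bind filaments and are known as partners of Arp2/3 or of focal adhesions.

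Total counts ranged from 17671193 to 27418358 per pool. Levels are given as CPM (read counts of a gene scaled to a common library size) after TMM scaling, a correction that sets pools to a common scale. Across the 12 pools, 19 oocyte markers summed to between 20078 and 25706 CPM. The 4 hemoglobin genes of the blood list had no count in any pool, and that whole list of 10 genes summed to at most 3.20 CPM. A list of 20 granulosa and cumulus cell markers summed to between 242 and 274 CPM in the 6 competent pools, but to between 164 and 755 CPM in the 6 non-competent pools, with the highest sums in PND 13 replicates 1 and 3 and PND 16 small replicate 2. Between 11 and 18 of these 20 markers reached 1 CPM in a pool, and no marker of the list was at 0 throughout. The 20 markers did not all move the same way. In PND 40 vs. PND 13, 2 of them were called higher and 3 lower by the criteria given below. That is 25% of the list, against 18.9% of all genes. The share of Rn45s, a ribosomal RNA precursor, was 1.46% to 2.98% of the counts in non-competent pools and 0.520% to 0.954% in competent pools. Leaving out the 3 pools with high granulosa sums left 1 PND 13 pool, taken to vary like the pools of the other cohorts, and where that changed a test or a call described here the value is given beside it. CPM is a share of all RNA counted, so more of 1 transcript per oocyte and less of the others cannot be told apart, nor can fewer cells of a type and less RNA per cell.

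Scaled to the length of their exons, the 10 genes fell into 3 tiers. Myo5b stood highest at 155 ± 9.22 CPM per kb of exon (SD, n = 12 pools). Next came 7 genes from Wasl (65.1 ± 8.08 CPM per kb) down to Actr3 (41.7 ± 4.71 CPM per kb), a span in which Actr2, Cfl1, Fmn2, Spire1 and Arpc2 followed each other by less than their spread over pools. Spire2 (6.26 ± 1.00 CPM per kb) and Coro2b (4.40 ± 2.83 CPM per kb) were the lowest. Inside the middle tier Fmn2 ranked 6 of 10 at both PND 13 and PND 40, but 3 in PND 16 small and 4 in PND 16 large. Spire1 ranked 7 at PND 13, 5 in PND 16 small, 6 in PND 16 large and 3 at PND 40. In PND 40 oocytes Spire1 (59.3 ± 3.06 CPM per kb) and Wasl (58.9 ± 0.772 CPM per kb) did not differ beyond their spread. At PND 40 Coro2b (7.09 ± 1.85 CPM per kb, n = 3) and Spire2 (6.82 ± 0.252 CPM per kb) did not differ beyond their spread. These levels rest on the exon union of the basic GENCODE M21 annotation, and which transcripts the oocytes used was not determined.

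**Figure D1:**
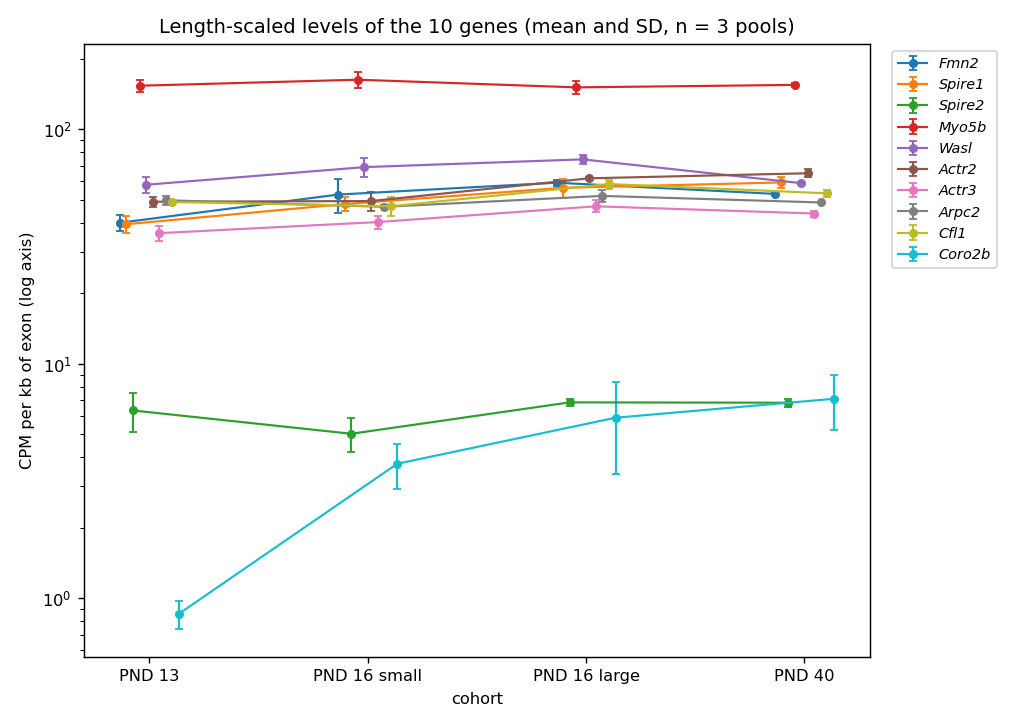
Mean level of each of the 10 genes in CPM per kb of exon, on a log axis, in the 4 cohorts on the x axis; bars show the SD over 3 pools. Myo5b lay between 151 and 163 CPM per kb in every cohort, whereas Coro2b went from 0.859 CPM per kb at PND 13 to 7.09 CPM per kb at PND 40.

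The comparisons asked which of these transcripts differed between oocytes of successive ages and between competent and non-competent oocytes. A gene passed the test when its p from the quasi-likelihood test of edgeR, adjusted by the Benjamini-Hochberg method across the 13943 genes, was at most 0.05, and was called differentially expressed when the change was also at least 1.5-fold. In PND 16 large vs. PND 13, 7 of the 10 genes passed the test and all 7 were higher, where 25.6% of all genes passed it and 12.6% passed it as higher. In PND 40 vs. PND 13, 5 of 10 passed it (33.1% of all genes), all higher (16.3% of all genes). In competent vs. non-competent oocytes the count was again 5 of 10 (30.7% of all genes), all higher (14.2% of all genes). The median log2 fold change of the 10 genes in these comparisons was 0.35, 0.20 and 0.26, beside medians of -0.04, 0.0044 and -0.0046 over all genes tested. The 3 comparisons share pools. Most of these changes were small: with the 1.5-fold criterion, 1 of 10 was called in PND 16 large vs. PND 13 (13.3% of all genes), 2 of 10 in PND 40 vs. PND 13 (18.9%) and 1 of 10 in competent vs. non-competent oocytes (15%).

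Within the non-competent cohorts and within the competent ones, fewer members passed the test. In PND 16 small vs. PND 13, 1 of the 10 genes, Coro2b, passed the test and was called, where 0.925% of all genes passed it and 0.373% were called. That share rested on single pools: of 52 genes called, the count became 4 without PND 13 replicate 3, 5 without PND 16 small replicate 3, 89 without PND 13 replicate 1 and 817 without PND 16 small replicate 1. In PND 40 vs. PND 16 large, 1 of the 10, Wasl, passed it and was lower (6.83% of all genes passed), and 0 reached the 1.5-fold criterion by edgeR or by DESeq2 (3.66% of all genes were called by edgeR), with 1 of 10 at an unadjusted p under 0.05 (22.4% of all genes). Between the same-age cohorts, PND 16 large vs. PND 16 small, Actr2 and Cfl1 passed the test as higher (12.3% of all genes passed it), and 0 of the 10 were called by edgeR or by DESeq2 (6.19% of all genes were called by edgeR), with 7 of 10 at an unadjusted p under 0.05 (28.2% of all genes). In PND 40 vs. PND 16 small, 4 of 10 passed the test (30.2% of all genes), 3 higher and 1 lower, and 1 of them, Coro2b, was called (17.2% of all genes).

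**Figure D2:**
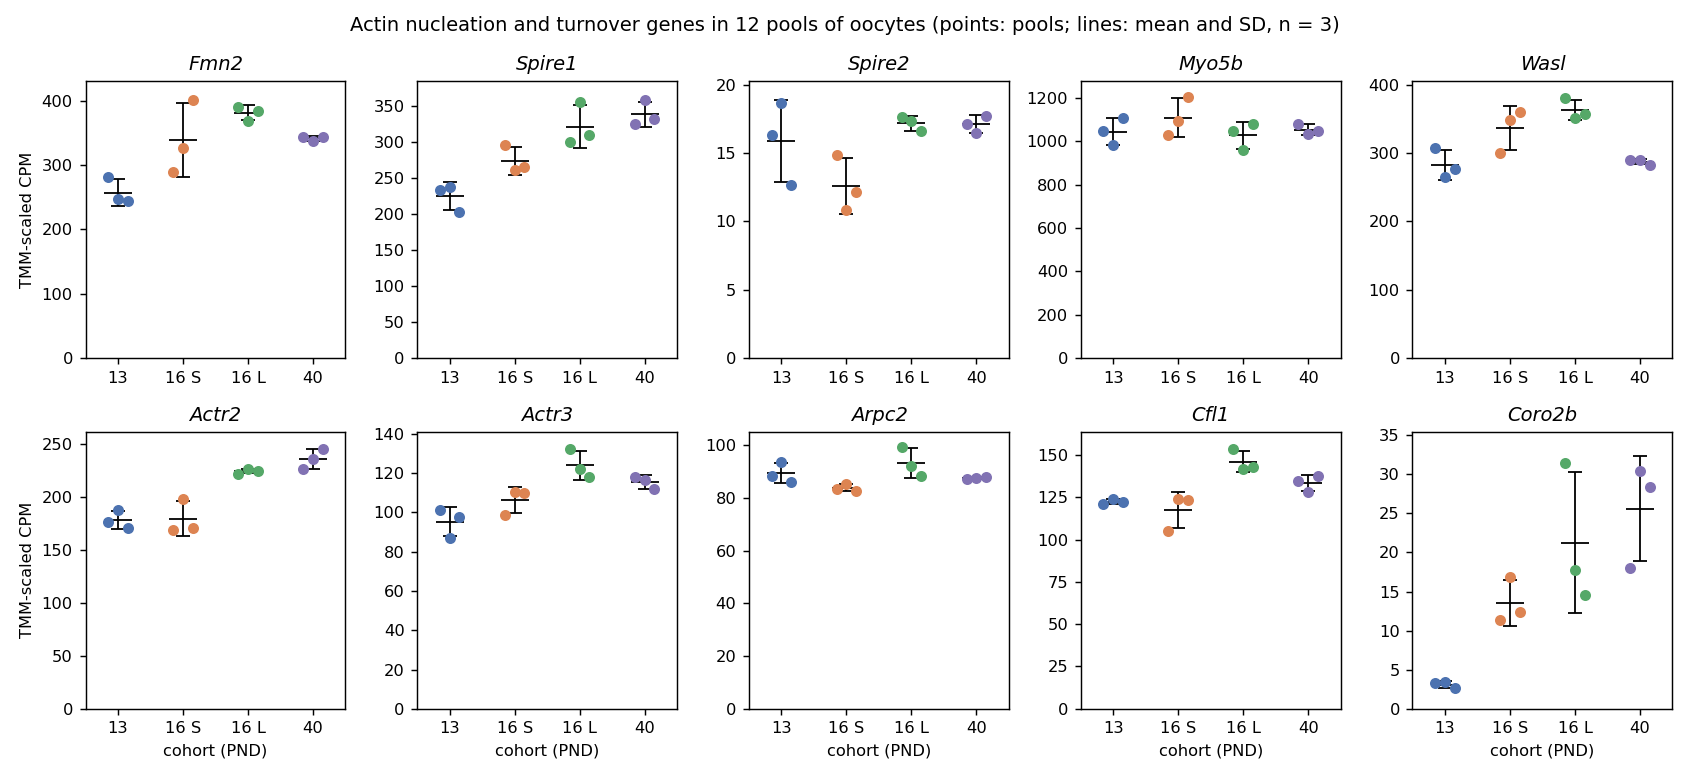
Level of each of the 10 genes in TMM-scaled CPM (y axis, from 0) in each pool of the 4 cohorts (16 S and 16 L, PND 16 small and large); points are pools and lines the mean and SD of 3 pools. The 3 PND 13 pools of Coro2b lie between 2.62 and 3.44 CPM, under all 9 other pools, and the pools of Myo5b overlap between all cohorts.

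Fmn2, the formin that nucleates the cytoplasmic mesh, was lowest at PND 13 and highest in PND 16 large oocytes. Its level was 281, 247 and 243 CPM in the 3 PND 13 pools, 289, 326 and 402 CPM in PND 16 small pools, 391, 368 and 385 CPM in PND 16 large pools and 344, 337 and 343 CPM in PND 40 pools. All 9 later pools lay above the 3 PND 13 pools. The log2 fold change vs. PND 13 was 0.57 in PND 16 large oocytes (95% confidence interval 0.35 to 0.78, adjusted p = 0.00169, edgeR) and 0.41 at PND 40 (0.19 to 0.62, adjusted p = 0.00692, edgeR). Without the 3 pools of high granulosa marker sums the PND 16 large difference was 0.63 (adjusted p = 0.0228, edgeR), which met the 1.5-fold criterion, and the PND 40 difference was 0.47 (adjusted p = 0.0507, edgeR). In PND 16 small vs. PND 13 the value was 0.40 (adjusted p = 0.0642, edgeR), and in competent vs. non-competent oocytes 0.28 (adjusted p = 0.0601, edgeR), neither past the test. The competent vs. non-competent difference passed it in 3 of 10 other settings and in 1 of 12 fits without a pool. Its adjusted p over those settings ran from 0.00575 to 0.259 (edgeR, DESeq2 or limma). The PND 16 small pools were widely spread, and the highest of them exceeded every other pool of the series.

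Spire1 and Spire2 encode nucleators that work with formin-2. Spire1 was measured at 234, 237 and 203 CPM at PND 13, at 296, 261 and 265 CPM in PND 16 small pools, at 299, 355 and 310 CPM in PND 16 large pools and at 325, 358 and 332 CPM at PND 40. No PND 13 pool reached the level of any later pool, and no non-competent pool that of any competent pool. Spire1 rose by 0.52 on the log2 scale in PND 16 large vs. PND 13 (adjusted p = 0.0013, edgeR) and by 0.59, which is 1.51-fold, in PND 40 vs. PND 13 (adjusted p = 0.000267, edgeR). The fold lies just past the 1.5-fold criterion, and the call, though not the test, was lost with other scalings, other count filters, DESeq2, a fit of only the pools compared and without the 3 pools of high granulosa marker sums (0.51, adjusted p = 0.016, edgeR). In competent vs. non-competent oocytes it was higher by 0.40 (0.23 to 0.58, adjusted p = 0.00226, edgeR), and in PND 40 vs. PND 16 small by 0.31 (adjusted p = 0.0167, edgeR; 0.0712 without PND 40 replicate 2 and 0.0535 without PND 16 small replicate 2).

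Spire2, much less abundant than its relative, did not pass the test in any of the 7 comparisons with the settings used here. It was measured at 16.3, 18.6 and 12.6 CPM at PND 13, 14.9, 10.9 and 12.2 CPM in PND 16 small pools, 17.6, 17.3 and 16.6 CPM in PND 16 large pools and 17.2, 16.5 and 17.7 CPM at PND 40. The 6 competent pools were closely grouped and the 6 non-competent pools spread on both sides of them. Between PND 40 and PND 16 small oocytes the log2 fold change was 0.44 (0.096 to 0.78, adjusted p = 0.0522, edgeR), and it passed the test in 5 of 10 other settings (adjusted p from 0.0335 to 0.103) and in 1 of 6 fits without a pool. The ratio of Spire1 to Spire2 counts within a pool was 14.4 ± 1.64 at PND 13, 21.9 ± 2.05 in PND 16 small, 18.7 ± 1.75 in PND 16 large and 19.8 ± 1.69 at PND 40 oocytes (SD, n = 3); the lowest pool of the later cohorts, at 17.0, was above the highest PND 13 pool, at 16.0. This ratio was chosen after its values were seen and was not tested.

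Myo5b, the motor on Rab11a vesicles, did not pass the test in any comparison. Its level was 1048, 982 and 1107 CPM at PND 13, 1030, 1093 and 1206 CPM in PND 16 small, 1047, 960.0 and 1080 CPM in PND 16 large and 1082, 1033 and 1048 CPM in PND 40 pools. All cohorts overlapped. In competent vs. non-competent oocytes the log2 fold change was -0.049, with a 95% confidence interval of -0.18 to 0.077, and in PND 40 vs. PND 13 it was 0.012 (-0.15 to 0.17), so that changes of 1.5-fold lie outside both intervals. Counts of 20329 to 28526 per pool stood behind these values. The ratio of Fmn2 to Myo5b counts was 0.247 ± 0.0247 at PND 13, 0.304 ± 0.0267 in PND 16 small, 0.371 ± 0.0139 in PND 16 large and 0.324 ± 0.00489 at PND 40 oocytes (SD, n = 3), a description chosen after its values were seen.

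Wasl encodes N-WASP, which turns on Arp2/3 when bound by Cdc42. It was highest at PND 16. The pools had 307, 265 and 276 CPM at PND 13, 299.9, 348 and 361 CPM in PND 16 small, 380.1, 351 and 358 CPM in PND 16 large, and 289, 289.9 and 283 CPM in PND 40 oocytes. Every PND 16 large pool lay above every pool of PND 13 and PND 40. Wasl was higher in PND 16 large vs. PND 13 by 0.36 on the log2 scale (0.19 to 0.53, adjusted p = 0.00533, edgeR). It was lower in PND 40 vs. PND 16 large by 0.34 (-0.34, interval -0.51 to -0.17, adjusted p = 0.0222, edgeR) and in PND 40 vs. PND 16 small by 0.23 (-0.23, adjusted p = 0.0422, edgeR). Both decreases were fragile: each missed the threshold in 5 of the 6 fits that left out a pool of either cohort, with adjusted p up to 0.0893 and 0.119. Without the 3 pools of high granulosa marker sums the difference in PND 40 vs. PND 16 small was -0.19 (adjusted p = 0.0962, edgeR). Against PND 13, the difference at PND 40 was 0.023 (-0.15 to 0.19).

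Actr2 and Actr3 encode Arp2 and Arp3, the actin-related subunits that form the seed of a new branch. Actr2 was at 176, 188 and 170.5 CPM at PND 13 and at 169, 198 and 171 CPM in PND 16 small pools, then at 222, 226 and 225 CPM in PND 16 large pools and 226, 236 and 245 CPM at PND 40. The 6 competent pools lay above all 6 non-competent pools, which was the case for 4 of the 10 genes (6.89% of all genes). The log2 fold change in competent vs. non-competent oocytes was 0.36 (0.24 to 0.48, adjusted p = 0.000332, edgeR), and Actr2 was past the test in all 12 fits that left out 1 pool. Between the PND 16 cohorts, of the same age, Actr2 was higher in large mice by 0.32 (adjusted p = 0.0134, edgeR). Without the 3 pools of high granulosa marker sums the difference in PND 16 large vs. PND 13, 0.33 with all pools (adjusted p = 0.00541), was 0.26 with adjusted p = 0.078 by edgeR.

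Actr3 was at 101, 87.0 and 97.7 CPM at PND 13, 98.6, 111 and 109.7 CPM in PND 16 small pools, 132, 122 and 118 CPM in PND 16 large pools and 118, 117 and 112 CPM at PND 40. Here too the competent pools all exceeded the non-competent ones, the nearest being a PND 40 pool at 112 CPM and a PND 16 small pool at 111 CPM. Actr3 rose by 0.38 in PND 16 large vs. PND 13 (adjusted p = 0.00428, edgeR), by 0.28 in PND 40 vs. PND 13 (adjusted p = 0.016, edgeR; 0.0899 without PND 13 replicate 2 and 0.0565 without PND 40 replicate 1) and by 0.25 in competent vs. non-competent oocytes (0.11 to 0.39, adjusted p = 0.0122, edgeR). A processed pseudogene, Gm8822, matches 2348 bases of Actr3 transcripts at 98.8% identity and is not listed in the count table, so how reads were shared between them is not known.

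Arpc2 encodes a core subunit that contacts the mother filament. It was at 88.4, 93.6 and 86.0 CPM at PND 13, 83.3, 85.3 and 82.7 CPM in PND 16 small pools, 99.2, 92.2 and 88.2 CPM in PND 16 large pools and 87.1, 87.4 and 87.9 CPM at PND 40. It did not pass the test in any comparison, and in competent vs. non-competent oocytes the log2 fold change was 0.061 (-0.063 to 0.19). The ratio of Actr2 to Arpc2 counts was 1.99 ± 0.0127 at PND 13, 2.14 ± 0.161 in PND 16 small, 2.41 ± 0.160 in PND 16 large and 2.70 ± 0.0949 at PND 40 oocytes (SD, n = 3), described here without a test since it was chosen after its values were seen. Processed pseudogenes also match Actr2 (Gm6828, 1189 bases at 94.1% identity) and Arpc2 (AC154544.1, 510 bases at 96.1%). They are not listed among the genes counted, so how reads were shared with them is not known.

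The other 7 genes for Arp2/3 subunits moved in both directions. In PND 40 vs. PND 13, 2 were past the test and higher and 4 lower, and 5 were called (71.4% of the 7, against 18.9% of all genes), with a median log2 fold change of -0.59. Arpc3, a small subunit, rose by 0.63 (adjusted p = 0.00465, edgeR) and Arpc1b by 0.35 (adjusted p = 0.0291). Arpc4, which with Arpc2 forms the core of the complex, fell by 0.64 (adjusted p = 0.0034), Arpc1a by 0.59 (adjusted p = 0.00322), Arpc5 by 0.78 (adjusted p = 0.00101) and Actr3b, a relative of Actr3, by 1.01 (adjusted p = 0.00599, all edgeR). Without the 3 pools of high granulosa marker sums, Arpc3 (0.42, adjusted p = 0.1), Arpc1b (0.36, adjusted p = 0.11) and Arpc1a (-0.54, adjusted p = 0.0763, all edgeR) missed the threshold. Several subunits come as pairs of paralogs. Arpc1b rose while Arpc1a fell. Arpc5l, the most abundant subunit at 90.4 ± 6.22 CPM per kb at PND 40, had a log2 fold change of 0.15 (adjusted p = 0.154, edgeR), while Arpc5, at 6.20 ± 0.527 CPM per kb, fell. Actr3 (43.7 ± 1.28 CPM per kb) was likewise the abundant partner of Actr3b (2.09 ± 0.199 CPM per kb). The count ratio of Arpc3 to Arpc4, chosen after its values were seen, was 0.819 to 1.41 in non-competent pools and 2.20 to 2.54 in competent pools. Arpc1b and Arpc4 share transcript sequence with Pdap1 and Ttll3, so how reads were split between these genes is uncertain.

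**Figure D3:**
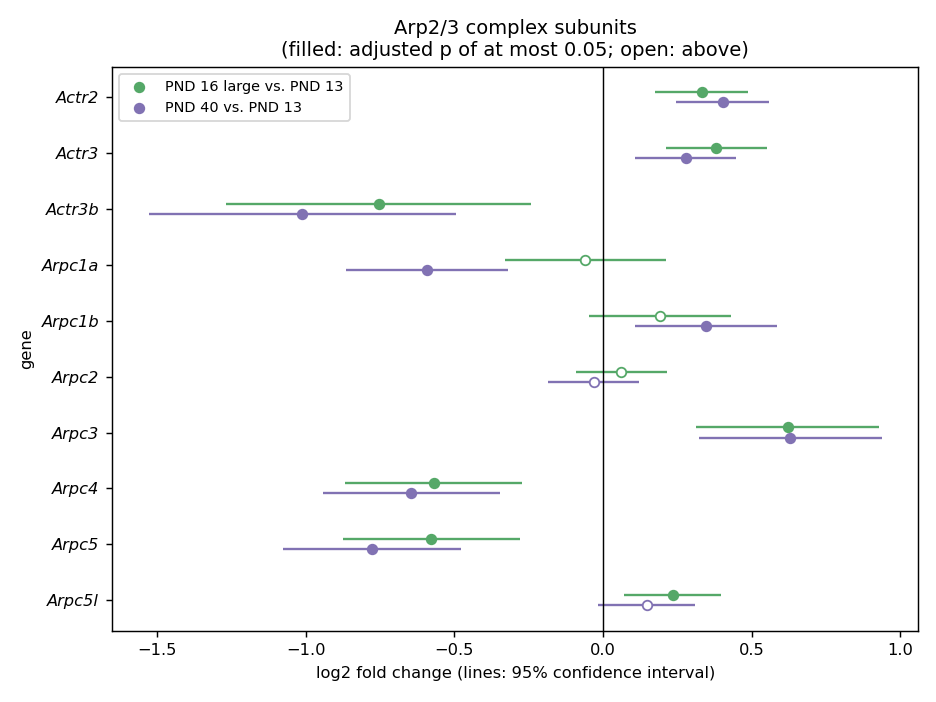
Log2 fold changes of the 10 genes for Arp2/3 complex subunits (x axis) with their 95% confidence intervals in 2 comparisons, PND 16 large and, separately, PND 40 oocytes against those of PND 13; filled points passed the test. Actr2, Actr3 and Arpc3 lie to the right of 0 in both comparisons, Actr3b, Arpc4 and Arpc5 to the left, and the intervals of Arpc2 include 0.

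Cfl1 encodes cofilin 1, which severs and depolymerizes filaments. It was at 121, 124 and 122 CPM at PND 13, 105, 124 and 123 CPM in PND 16 small pools, 154, 142 and 143 CPM in PND 16 large pools and 135, 128 and 137 CPM at PND 40. All competent pools exceeded all non-competent pools, and PND 16 small replicate 1 stood below the others. Cfl1 was higher in PND 16 large oocytes than in PND 16 small oocytes by 0.32 (adjusted p = 0.0174, edgeR; 0.0863 without PND 16 large replicate 1) and in competent vs. non-competent oocytes by 0.22 (0.089 to 0.35, adjusted p = 0.0145, edgeR). The difference in PND 16 large vs. PND 13, 0.25 (adjusted p = 0.0241, edgeR), missed the threshold in 5 of 6 fits without a pool, with adjusted p up to 0.127, and was 0.24 (adjusted p = 0.189, edgeR) without the pools of high granulosa marker sums. Transcripts of Cfl1 resemble 4 processed pseudogenes at 90% identity or more, and on the opposite strand 354 bases overlap an exon of Snx32, which had at most 68 counts in a pool. Whether counting used the strand is not given in the sources used here.

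Coro2b, a coronin, changed more than any other of the 10 genes. Its level was 3.25, 3.44 and 2.62 CPM at PND 13, from 64 to 88 counts in a pool. It was 11.4, 16.9 and 12.3 CPM in PND 16 small pools, 31.5, 17.8 and 14.6 CPM in PND 16 large pools and 18.0, 30.4 and 28.4 CPM at PND 40. The 3 PND 13 pools were all far under the 9 later pools, while the PND 16 cohorts overlapped each other and PND 16 large overlapped PND 40. Coro2b was 4.36-fold higher in PND 16 small vs. PND 13 (log2 fold change 2.12, 1.47 to 2.78, adjusted p = 0.0189, edgeR), 6.84-fold in PND 16 large (2.77, 2.11 to 3.44, adjusted p = 0.00024, edgeR) and 8.24-fold in PND 40 oocytes (3.04, 2.38 to 3.71, adjusted p = 4.19e-05, edgeR), and was called in all 3 comparisons.

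The increase of Coro2b from PND 13 to PND 16 small mice rested on few pools for its call. It missed the threshold without PND 13 replicate 3 (adjusted p = 0.112, edgeR), without PND 16 small replicate 3 (adjusted p = 0.0679, edgeR), when only the 6 pools compared were fitted (adjusted p = 0.0808, edgeR) and without the 3 pools of high granulosa marker sums (1.78, adjusted p = 0.203, edgeR). Granulosa marker sums were 612, 164 and 700.5 CPM in the PND 13 pools, where Coro2b was at 3.25, 3.44 and 2.62 CPM, and their part in the result was not tested. PND 40 oocytes were higher than PND 16 small oocytes by 0.92 (adjusted p = 0.0257, edgeR), lost in 4 of 6 fits without a pool (adjusted p up to 0.0931). In competent vs. non-competent oocytes, where the non-competent group joins the low PND 13 pools with the higher PND 16 small pools, the log2 fold change was 1.5 (0.51 to 2.49, adjusted p = 0.0251, edgeR), and it missed the threshold in 3 of 12 fits without a pool (adjusted p up to 0.0539).

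**Figure D4:**
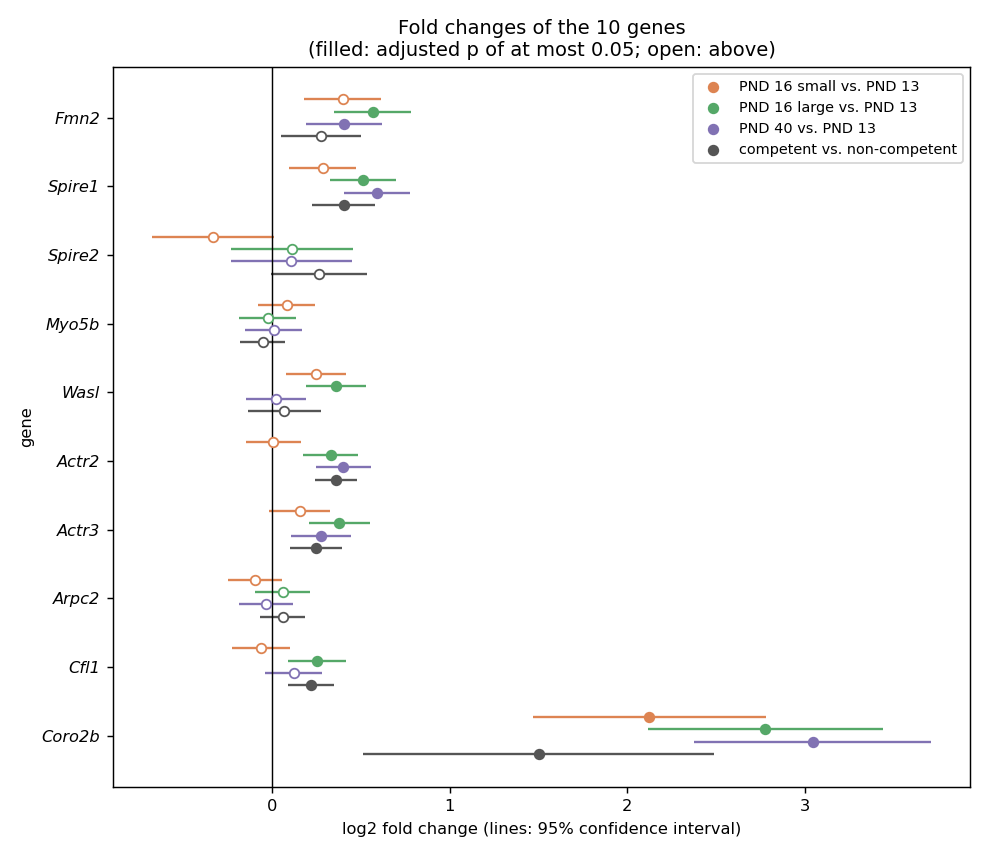
Log2 fold changes of the 10 genes (x axis) with their 95% confidence intervals in 4 comparisons; filled points passed the test at an adjusted p of at most 0.05 and open points did not. Coro2b lies between 1.5 and 3.04, and the other 9 genes lie between -0.33 and 0.59.

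Coro2b, Fmn2, Actr2 and Actr3 passed the test as higher against PND 13 at both later competent ages, as did Spire1. For that reason the DNA before the starts of Coro2b, Fmn2, Actr2 and Actr3 is shown. Spire1 is left out because it had no usable window of untranscribed bases. The patterns of the genes shown were not the same. In PND 16 small vs. PND 13 the log2 fold change was 2.12 for Coro2b, 0.40 for Fmn2, 0.16 for Actr3 and 0.0094 for Actr2. The sequences are RefSeq's on GRCm38.p6, read 5′ to 3′ on the strand of the gene, cut so that no transcribed base is included. Capitals mark matches, on either strand, to the letters CCAAT (the CCAAT box), CANNTG (the E box, the core bound by oocyte bHLH factors) and TAATTG (the element bound by the oocyte homeobox factor NOBOX). Coro2b lies on the minus strand of chromosome 9, and its window is chr9:62537045-62537294; Fmn2 is on the plus strand, chr1:174501575-174501751; Actr2 on the minus strand, chr11:20112952-20113201; Actr3 on the minus strand, chr1:125435728-125435977.
Coro2b: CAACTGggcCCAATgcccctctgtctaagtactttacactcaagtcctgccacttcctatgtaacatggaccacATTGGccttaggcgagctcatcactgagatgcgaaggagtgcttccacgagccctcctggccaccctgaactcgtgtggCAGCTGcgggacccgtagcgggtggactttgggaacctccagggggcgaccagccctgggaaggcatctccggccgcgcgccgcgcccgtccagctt
Fmn2: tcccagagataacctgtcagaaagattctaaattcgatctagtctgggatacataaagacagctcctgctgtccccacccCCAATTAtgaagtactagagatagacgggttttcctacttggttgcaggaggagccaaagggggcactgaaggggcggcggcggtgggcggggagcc
Actr2: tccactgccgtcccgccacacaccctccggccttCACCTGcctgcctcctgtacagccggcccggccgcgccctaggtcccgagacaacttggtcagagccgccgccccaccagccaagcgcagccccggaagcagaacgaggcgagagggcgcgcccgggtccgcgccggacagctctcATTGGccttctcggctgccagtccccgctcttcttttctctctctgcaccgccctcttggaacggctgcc
Actr3: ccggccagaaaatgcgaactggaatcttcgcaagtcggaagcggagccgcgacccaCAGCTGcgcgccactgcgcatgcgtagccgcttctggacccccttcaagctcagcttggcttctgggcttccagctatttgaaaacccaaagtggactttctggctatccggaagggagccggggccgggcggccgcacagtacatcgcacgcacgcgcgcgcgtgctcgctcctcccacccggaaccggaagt
Coro2b holds 2 CCAAT matches and 2 E boxes in 250 bases, Fmn2 holds 1 CCAAT match that overlaps 1 TAATTG match in 177 bases, Actr2 holds 1 CCAAT match and 1 E box, and Actr3 holds 1 E box. Of the 7 members with a window of untranscribed bases, CCAAT was found in 5, against 34.5% of 27025 genes with a window of 250 bases, CANNTG in 4 against 66.0%, and TAATTG in 1 against 7.34%. The GC box letters GGGCGG were in 5 of 7, against 32.9%, and TATAAA in 0 of 7, against 13.0%. The windows of the 27025 genes were not cut at annotated starts as those of the members were, nor limited to the genes tested. The members' counts and these shares are thus unlike measures. All matches are descriptions of the letters, and the data hold no measurement of binding.

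By GENCODE M21 on GRCm38, the genes themselves are protein-coding loci on 7 chromosomes. Fmn2 spans 174501825 to 174822729 of chromosome 1, where Actr3 (125392905 to 125435727) and Arpc2 (74236084 to 74268209) also lie. Coro2b spans 62419492 to 62537044 of chromosome 9, Actr2 20062304 to 20112913 of chromosome 11, Wasl 24613805 to 24665009 of chromosome 6, Spire2 123332713 to 123369515 of chromosome 8 and Cfl1 5490455 to 5495201 of chromosome 19. Spire1 and Myo5b are both on chromosome 18. Counts are sums over the exons of each gene, so isoforms were not told apart.

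The closest relatives of the 10 genes did not all move as the members did. Coro2a, the paralog of Coro2b, also rose: 13.4 ± 2.38 CPM at PND 13, 19.9 ± 6.78 in PND 16 small, 29.8 ± 0.884 in PND 16 large and 37.0 ± 1.36 CPM at PND 40 (SD, n = 3), a log2 fold change of 1.46 in PND 40 vs. PND 13 (adjusted p = 0.000269, edgeR) and of 1.01 in competent vs. non-competent oocytes (adjusted p = 0.00119, edgeR). Fmn1, the paralog of Fmn2, had its highest level in PND 16 large oocytes too, at 20.1 ± 1.46 CPM against 6.12 ± 1.25 CPM at PND 13 (1.72, adjusted p = 0.00032, edgeR), and was lower at PND 40, at 11.1 ± 0.226 CPM (-0.86 vs. PND 16 large, adjusted p = 0.0272, edgeR). Dstn, a cofilin relative, was 36.9 ± 3.29 CPM at PND 13 and 36.3 ± 5.47 CPM in PND 16 large, but 59.7 ± 4.39 CPM at PND 40 (0.72 vs. PND 16 large, adjusted p = 0.00417, edgeR). The log2 fold change in PND 40 vs. PND 13 was -0.11 for Cfl2, the muscle-type cofilin (adjusted p = 0.246, edgeR), -0.10 for Myo5a (adjusted p = 0.539, edgeR) and 0.011 for Myo5c (adjusted p = 0.995, edgeR), whose PND 13 pools spread widely, at 1.92 ± 1.36 CPM.

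Of 120 further genes of actin assembly and its partners, 105 were tested, and in PND 40 vs. PND 13 28 of them were called, 10 higher and 18 lower (26.7%, against 18.9% of all genes). In competent vs. non-competent oocytes 20 were called, 7 higher and 13 lower (19%, against 15% of all genes), and in PND 16 large vs. PND 13 13 were called, 5 higher and 8 lower (12.4%, against 13.3%). In PND 16 small vs. PND 13 edgeR called 0 of 105, with 11 at an unadjusted p under 0.05 (19.2% of all genes), and DESeq2 called 2. The medians of the 105 in PND 40 vs. PND 13 and in competent vs. non-competent oocytes were -0.10 and -0.10. The genes of these lists named here are those with the largest called change in each direction in PND 40 vs. PND 13 or in competent vs. non-competent oocytes, and paralogs of the members.

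Among the Arp2/3 activators and their partners, 3 of 22 tested were called higher and 4 lower in PND 40 vs. PND 13. The largest decrease was that of Abi2, an adaptor of the WAVE complex, the regulator that passes Rac signals to Arp2/3: 96.2 ± 7.36 CPM at PND 13, 94.6 ± 21.9 in PND 16 small, 42.9 ± 7.94 in PND 16 large and 33.1 ± 5.0 CPM at PND 40 (-1.54 vs. PND 13, adjusted p = 6.94e-05, edgeR). Other WAVE complex genes rose: Cyfip2 by 0.78 (adjusted p = 0.000983, edgeR) and Nckap1l by 0.89 (adjusted p = 0.00149, edgeR). Without the 3 pools of high granulosa marker sums Cyfip2 was at 0.60 (adjusted p = 0.0507, edgeR).

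In the formin and Spire list, 3 of 19 were called higher and 1 lower in PND 40 vs. PND 13. Grid2ip, a formin described in cerebellar neurons, had the largest increase, from 0.531 ± 0.250 to 2.79 ± 0.284 CPM (2.38, adjusted p = 0.0133, edgeR), at counts as low as 6 in a pool of the series, and at 2.82 (adjusted p = 0.0838, edgeR) without the 3 pools of high granulosa marker sums. Diaph2 fell from 3.77 ± 2.27 to 0.647 ± 0.0613 CPM (-2.53, adjusted p = 0.00308, edgeR). Its PND 13 pools were at 5.35, 1.17 and 4.79 CPM, beside granulosa marker sums of 612, 164 and 700.5 CPM, and its PND 16 small pools at 1.55, 4.69 and 2.97 CPM, beside sums of 202, 755 and 304 CPM. Diaph2 was thus high in the 3 pools of high sums. Without them, with 1 PND 13 pool left, its difference in PND 40 vs. PND 13 was -0.85, against -2.53 with all pools. The size of the decrease from PND 13 thus depended on the pools of high sums. In PND 40 vs. PND 16 small the difference without them was -1.78. PND 16 large pools were at 2.15 to 2.25 CPM, beside sums of 242 to 259 CPM. PND 40 pools were at 0.600 to 0.717 CPM, beside sums of 244 to 274 CPM. With all pools the log2 fold change in PND 40 vs. PND 16 large was -1.75 (adjusted p = 0.0661, edgeR). It was also -1.75 without the 3 pools. The part of granulosa RNA in these values was not tested. Fhod1 was lower in competent oocytes (-0.64, adjusted p = 0.00845, edgeR).

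Of 23 myosins and Rab11 vesicle partners tested, 2 were called in PND 40 vs. PND 13, both lower, while 7 passed the test, 2 higher and 5 lower. Rab11fip2, a Rab11 adaptor known to bind myosin Vb, went from 29.4 ± 0.849 CPM at PND 13 to 14.8 ± 2.34 CPM in PND 16 large oocytes, then 12.7 ± 2.21 CPM at PND 40 (-1.21 vs. PND 13, adjusted p = 0.000404, edgeR), whereas Myo5b itself did not pass the test. Rab11fip4, another adaptor of the family, was higher in competent oocytes (1.12, adjusted p = 0.0304, edgeR), with 179 ± 28.2 CPM in PND 16 large and 93.5 ± 27.8 CPM in PND 40 oocytes, against 70.0 ± 15.8 CPM at PND 13 and 55.2 ± 39.7 CPM in PND 16 small oocytes. The highest PND 16 small pool, at 100.5 CPM, exceeded the PND 40 pools at 73.7 and 81.4 CPM, and in PND 40 vs. PND 13 the log2 fold change was 0.42 (adjusted p = 0.521, edgeR).

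Among 30 tested genes of cofilin, coronins and filament turnover, 3 were called higher and 5 lower in PND 40 vs. PND 13. The coronins Coro1c and Coro7 fell where Coro2b and Coro2a rose: Coro1c went from 138 ± 22.4 to 69.0 ± 7.65 CPM (-0.997, adjusted p = 7.22e-05, edgeR) and Coro7, a Golgi coronin, from 11.5 ± 1.33 to 6.32 ± 0.991 CPM (-0.87, adjusted p = 0.00682, edgeR). Of the 6 actin genes 4 were tested, and 2 were called, both lower, in PND 40 vs. PND 13. Actb, the cytoplasmic beta-actin, was at 145, 122 and 163 CPM in PND 13 pools, 116, 117 and 118 CPM in PND 16 large pools and 76.1, 76.7 and 66.7 CPM in PND 40 pools. The groups did not overlap (50.8% of all genes did not in that comparison), and the log2 fold change was -0.97 (adjusted p = 6.74e-05, edgeR). In the PND 13 pools these Actb levels stood beside granulosa marker sums of 612, 164 and 700.5 CPM. In PND 16 small pools Actb was at 133, 162 and 175 CPM, beside sums of 202, 755 and 304 CPM. Sums were 242 to 259 CPM in PND 16 large and 244 to 274 CPM in PND 40 pools. In PND 40 vs. PND 16 large the log2 fold change of Actb was -0.68 (adjusted p = 0.00438, edgeR). Without the 3 pools of high sums the Actb difference in PND 40 vs. PND 13 was -0.74. The part of granulosa RNA in these values was not tested. Actg1, the gamma-actin, had 2.86 ± 0.755 CPM in PND 13 oocytes and 1.11 ± 0.108 CPM in PND 40 oocytes (-1.36, adjusted p = 0.0125, edgeR; -1.10 and 0.175 without the 3 pools), but 14 other genes match its transcripts at 90% identity or more, which makes its counts uncertain, and Actb has 7 such matches.

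**Figure D5:**
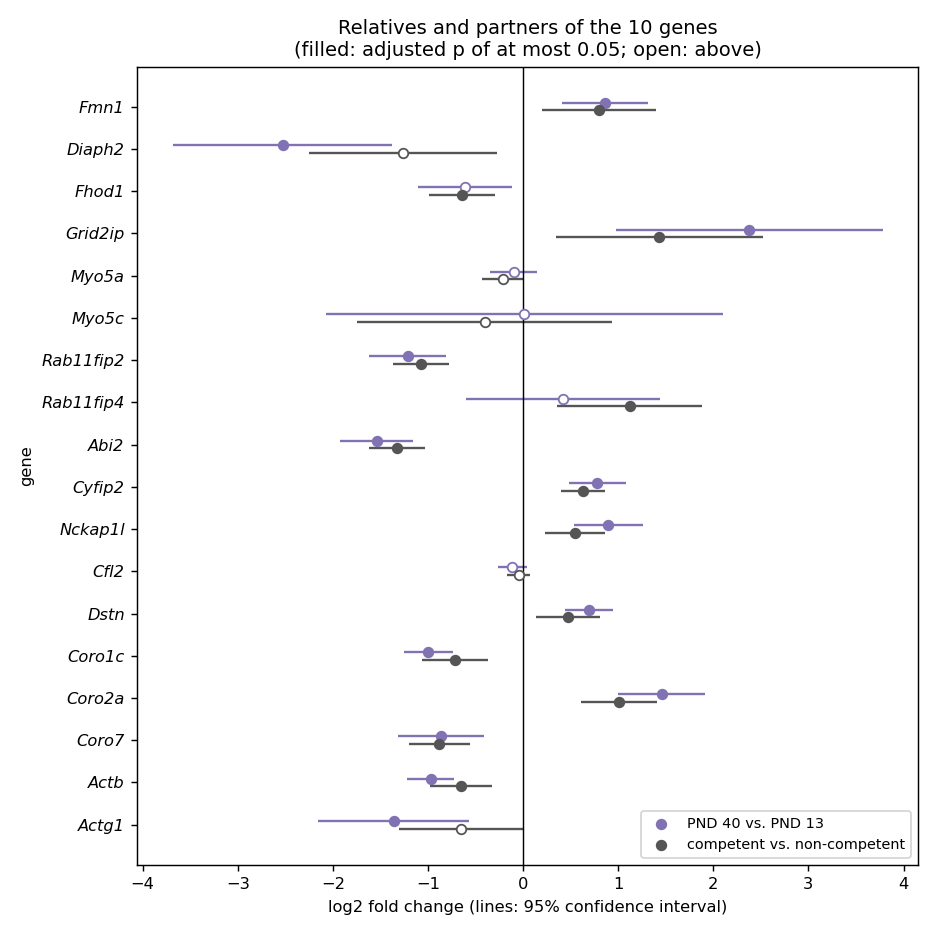
Log2 fold changes of paralogs and partners of the 10 genes (x axis) with their 95% confidence intervals in PND 40 vs. PND 13 and in competent vs. non-competent oocytes; filled points passed the test. Coro2a and Grid2ip lie to the right, and Abi2, Rab11fip2, Coro1c, Coro7 and Actb to the left, in both comparisons.

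Over the 12 pools, the genes whose log2 CPM followed Fmn2 most closely, of 11947 compared, were Ccnt2 (Pearson r = 0.985), Arhgap12 (r = 0.980) and Mbtd1 (r = 0.978). Ccnt2, a cyclin T of transcription elongation, had 153 ± 6.10 CPM at PND 13, 177 ± 12.3 in PND 16 small, 195 ± 3.84 in PND 16 large and 179.7 ± 2.36 CPM at PND 40. The 3 nearest to Coro2b were Ccp110 (r = 0.965), a centriole protein, Rnf111 (r = 0.958), a ubiquitin ligase, and Nol4 (r = 0.957). Ccp110 went from 86.1 ± 1.32 CPM at PND 13 to 132 ± 3.40 CPM at PND 40. Among the 10 members themselves, r with Coro2b was 0.870 for Spire1, 0.820 for Actr3 and 0.807 for Fmn2, and -0.023 for Myo5b. These values are descriptions: the 12 points share cohorts, depth and scaling, and the genes named were picked as the closest ones.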

How the data were processed

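RNA-Seq was done on 12 pools of oocytes, 3 in each of 4 cohorts named in the labels. The authors deposited raw counts per gene, made from rRNA-depleted directional libraries. The submitters' processing notes name mm10, FastQC, STAR, HTSeq, DESeq2, DESeq and HOMER, and their versions and the strand setting of the counting are not given in the sources used here. A second table, deposited by the authors on a log2 scale, was found to hold log2(count × pool constant + 1).

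Counts were filtered with filterByExpr at a minimum count of 10, scaled by TMM and tested with the quasi-likelihood test of edgeR 4.0.16 in R 4.3.3, with Benjamini-Hochberg adjustment across all genes tested. The 6 pairwise comparisons were fitted in a model of 4 cohorts and competent vs. non-competent oocytes in a model of 2 groups. Standard errors and intervals were derived from the F statistic and cover the spread between pools. The code was tested on simulated data. Alternatives were DESeq2 1.42.0, limma 3.58.1 on the authors' log2 values, RLE, upper-quartile and total-count scaling, other count filters, a replicate block, no fold criterion, only the pools compared, each pool left out in turn and, chosen after seeing the data, leaving out the 3 pools of highest granulosa marker sums. For competent vs. non-competent oocytes, a contrast of cohort means in the model of 4 cohorts was also fitted. Matches between transcripts of at least 90% identity over 200 bases were found with blastn 2.17.0 in GENCODE M21. Genes outside the 10 members were named as the called gene with the largest change per list, direction and comparison (PND 40 vs. PND 13, competent vs. non-competent) with a mean of at least 1 CPM, as paralogs, or, for Fmn2 and Coro2b, as the 3 genes of highest Pearson correlation of log2 CPM (prior count 2). All Arp2/3 subunits were given. The members and lists were chosen with earlier results of these data known.

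Total counts per pool set the precision of low genes, and PCR reads without molecular identifiers are not independent molecules.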

Additional observations from a re-analysis of the deposited data

Results flagged for a closer look

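Among the 6 non-competent pools, the Cfl1 level of PND 16 small replicate 1, 105 CPM, lay apart from the others, of which the nearest was at 121 CPM. The gap was 0.855 of the group's range, above Dixon's 95% critical value for 6 pools. The 10 genes gave 20 groups of 6 pools, and chance alone places about 1 in 20 groups past this limit. Without that pool, Cfl1 differed by 0.19 on the log2 scale in competent vs. non-competent oocytes (adjusted p = 0.0302, edgeR).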

How the results depend on the processing

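Of 1180 refits of the 10 genes under other settings or without a pool, 1115 stayed on their side of the threshold, 44 fell short of it and 21 newly passed it. Of the 1115, 1076 kept their direction and 39 changed sign, none of which passed the test (lowest adjusted p = 0.463, edgeR or the alternative tool). Most members changed by under 1.5-fold, so the criterion decided the counts: without it, members called were 7 (PND 16 large vs. PND 13), 5 (PND 40 vs. PND 13), 2 (PND 16 large vs. small), 4 (PND 40 vs. PND 16 small), 1 (PND 40 vs. PND 16 large) and 5 (competent vs. non-competent), and other actin genes called were 1 (PND 16 small vs. PND 13) and, in the order just given, 32, 48, 17, 44, 12 and 47. Only 1 member rather than 2 was called in PND 40 vs. PND 13 with DESeq2, RLE, upper-quartile or total-count scaling, a looser or stricter filter, only the pools compared, or without the 3 pools of high granulosa sums. The members called in PND 16 small vs. PND 13 were 0 with only the pools compared or without those 3 pools, and without them PND 16 large vs. PND 13 had 2. Other actin genes called in PND 16 small vs. PND 13 were 2 with DESeq2, 1 with the looser filter, 1 with limma and 2 without the 3 pools. For PND 40 vs. PND 16 large the values were 8 with DESeq2, 11 with only the pools compared and 8 without the 3 pools, against 5, and in PND 16 large vs. small 3 with only the pools compared, against 7. The causes of these shifts were not tested.

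Leaving out 1 pool, members called ranged from 0 to 1 (PND 16 small vs. PND 13), 1 to 2 (PND 16 large vs. PND 13), 1 to 2 (PND 40 vs. PND 13), 0 to 1 (PND 40 vs. PND 16 small), 0 to 1 (competent vs. non-competent) and were 0 in the other comparisons. Other actin genes called ranged from 0 to 6 (PND 16 small vs. PND 13), 11 to 16 (PND 16 large vs. PND 13), 24 to 30 (PND 40 vs. PND 13), 2 to 10 (PND 16 large vs. small), 18 to 25 (PND 40 vs. PND 16 small), 3 to 5 (PND 40 vs. PND 16 large) and 15 to 22 (competent vs. non-competent). Fmn2 passed the test in PND 16 small vs. PND 13 with DESeq2 (adjusted p = 0.00976). Actr2 and Cfl1 missed it in PND 16 large vs. small with only the pools compared (adjusted p = 0.0653 and 0.0814, edgeR).

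Deviations of same-numbered pools correlated at -0.442 to 0.0753 over 18 pairs. The labels join these pools by a number only, and whether they share more was not determined. With a replicate block the count of members called was 1, 1, 2, 0, 1, 0 and 1, as without it, and Wasl in PND 40 vs. PND 16 small missed the threshold (adjusted p = 0.0658, edgeR). Over all genes, the block left 10 calls in PND 16 small vs. PND 13, against 52, where DESeq2 made 361. With total counts the share of higher calls there was 24%, against 48.1%. Leaving out PND 16 large replicate 1 lowered the count over all genes from 1858 to 1154 in PND 16 large vs. PND 13 and from 863 to 333 in PND 16 large vs. small, and each pool of PND 16 large or PND 40 lowered it from 510 to between 246 and 305 in PND 40 vs. PND 16 large. Against PND 13, omitting the 3 pools of high granulosa sums gave 17 instead of 52 (PND 16 small), 1064 instead of 1858 (PND 16 large) and 1506 instead of 2637 (PND 40).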
